A study of Zea mays with 57 samples.

Results

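In shoots of nitrogen-starved maize, 13 genes averaged higher in nitrogen than in the KCl control medium over 15 to 30 min. Averaged over 45 to 120 min, they lay above the start in nitrogen and near it in KCl. They are 13 of the 46335 gene models counted, or of the 15192 nuclear genes that could be chosen. They were chosen by their measured values. A gene had to average at least 5 CPM, the counts per 1000000 counts of a library. Its level, as log2 of the group mean CPM plus 1, had to lie at least 0.8 above the start when averaged over 45 to 120 min in nitrogen. Averaged over the same times in KCl it had to lie within 0.4 of the start in either direction. Single times in KCl could lie further off. Zm00001d050694 stood at -0.89 from the start at 10 min and at 0.85 at 120 min, and Zm00001d000640 at -1.15 at 20 min. The nitrogen minus KCl difference, averaged over 15, 20 and 30 min, had to reach at least 0.7. Regulators of the authors' network table and 3 genes named in the rule were left out. Levels from 15 min on therefore describe the choice and are given with no test of nitrogen against KCl.

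Nitrate and ammonium are the main inorganic nitrogen sources of cereals. Nitrate is also a signal: plants that meet it after starvation switch on genes for its uptake, its reduction and its assimilation into amino acids, together with transcription factors. In plants this early transcriptional answer is called the primary nitrate response. A shoot receives the supply through the root and the xylem, so time after transfer is not time after arrival in the leaf.

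All plants were B73, a maize inbred line, grown on nitrate-free medium with the endosperm removed and starved of nitrogen for 2 days until day 10. At 2 h after lights on, seedlings went into fresh medium with either nitrogen (KNO3 and NH4NO3, each at 20 mM, with 10% of the nitrogen as 15N) or KCl at 20 mM, which gives potassium and no nitrogen; because the media also differ in chloride and in the amount of salt, effects of these and of nitrogen cannot be told apart. Harvests of shoots were made before transfer (the start) and 9 times within 120 min, beginning at 5 min, with 3 replicates per group and tissue of 3 seedlings pooled in each, so p-values measure the spread between such pools. RNA was read by sequencing of 3' ends with unique molecular identifiers, giving 57 libraries in 19 groups. In such bulk samples, fewer cells of a type and less RNA per cell cannot be told apart.

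Library totals ran from 1057488 to 5684785 counts, except nitrogen 120 min replicate 3, which held 8560. That library is outside the CPM values below, so nitrogen at 120 min has 2 libraries in them. It entered the count model, in which a library weighs by its depth. Counting ignored strand, so reads of an overlapping or antisense neighbour can fall to a gene.

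None of the genes carries a name: 0 of 13 IDs occur in the reference table of maize gene names, which follows another assembly, and only 153 of the 46117 nuclear IDs do. No role is therefore given to any of them, and no list of nitrogen pathway genes could be set beside them. They lie on 7 chromosomes, and no member had another within 10 gene models. ENSRNA049478126 bears an ID of another form than the Zm00001d genes, and what kind of transcript it makes was not examined. Coordinates are those of the AGPv4 annotation, release 37. Zm00001d038718 lies on chromosome 6 (163324435 to 163325813, minus strand), Zm00001d033543 on chromosome 1 (266535576 to 266537890, plus strand), Zm00001d025015 on chromosome 10 (99806303 to 99812704, plus strand) and Zm00001d049187 on chromosome 4 (19755800 to 19757563, minus strand). These are the 4 strongest risers. Zm00001d000640 is on chromosome 3 (163753851 to 163754144, plus strand), Zm00001d025612 on chromosome 10 (123896700 to 123897435, plus strand), Zm00001d029529 on chromosome 1 (74918081 to 74921222, plus strand), Zm00001d038908 on chromosome 6 (166802962 to 166806226, minus strand) and Zm00001d050694 on chromosome 4 (116195309 to 116209741, plus strand). On chromosome 2 are Zm00001d000849 (73518047 to 73518658, minus strand) and Zm00001d005849 (190823918 to 190826106, plus strand). The remaining members are Zm00001d047981 on chromosome 9 (147117784 to 147120247, minus strand) and ENSRNA049478126 on chromosome 6 (12748431 to 12750238, minus strand).

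Simple gene models were common among them. A single exon block made up 5 of the 13 models (38.5%), against 879 of the 15192 eligible genes (5.79%). Those 5 are Zm00001d049187, Zm00001d000640, Zm00001d025612, Zm00001d000849 and ENSRNA049478126. The median summed exon length was 1764 bases among members and 2243 among eligible genes, and the median number of exon blocks was 3 against 5. The shortest is Zm00001d000640 at 294 bases. It overlaps Zm00001d042376 on the same strand, whose mean of 0.243 CPM compares with its own 31.2. Zm00001d033543 overlaps Zm00001d033544 on the opposite strand, at 0.638 CPM against 11.02. Zm00001d050694 ends, at its 3' side, 62 bases from the next model, and Zm00001d000849 has a model 95 bases from its 5' side. ENSRNA049478126 has a model 221 bases from its 3' side. These counts of structure are a description of a small set.

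**Figure D1:**
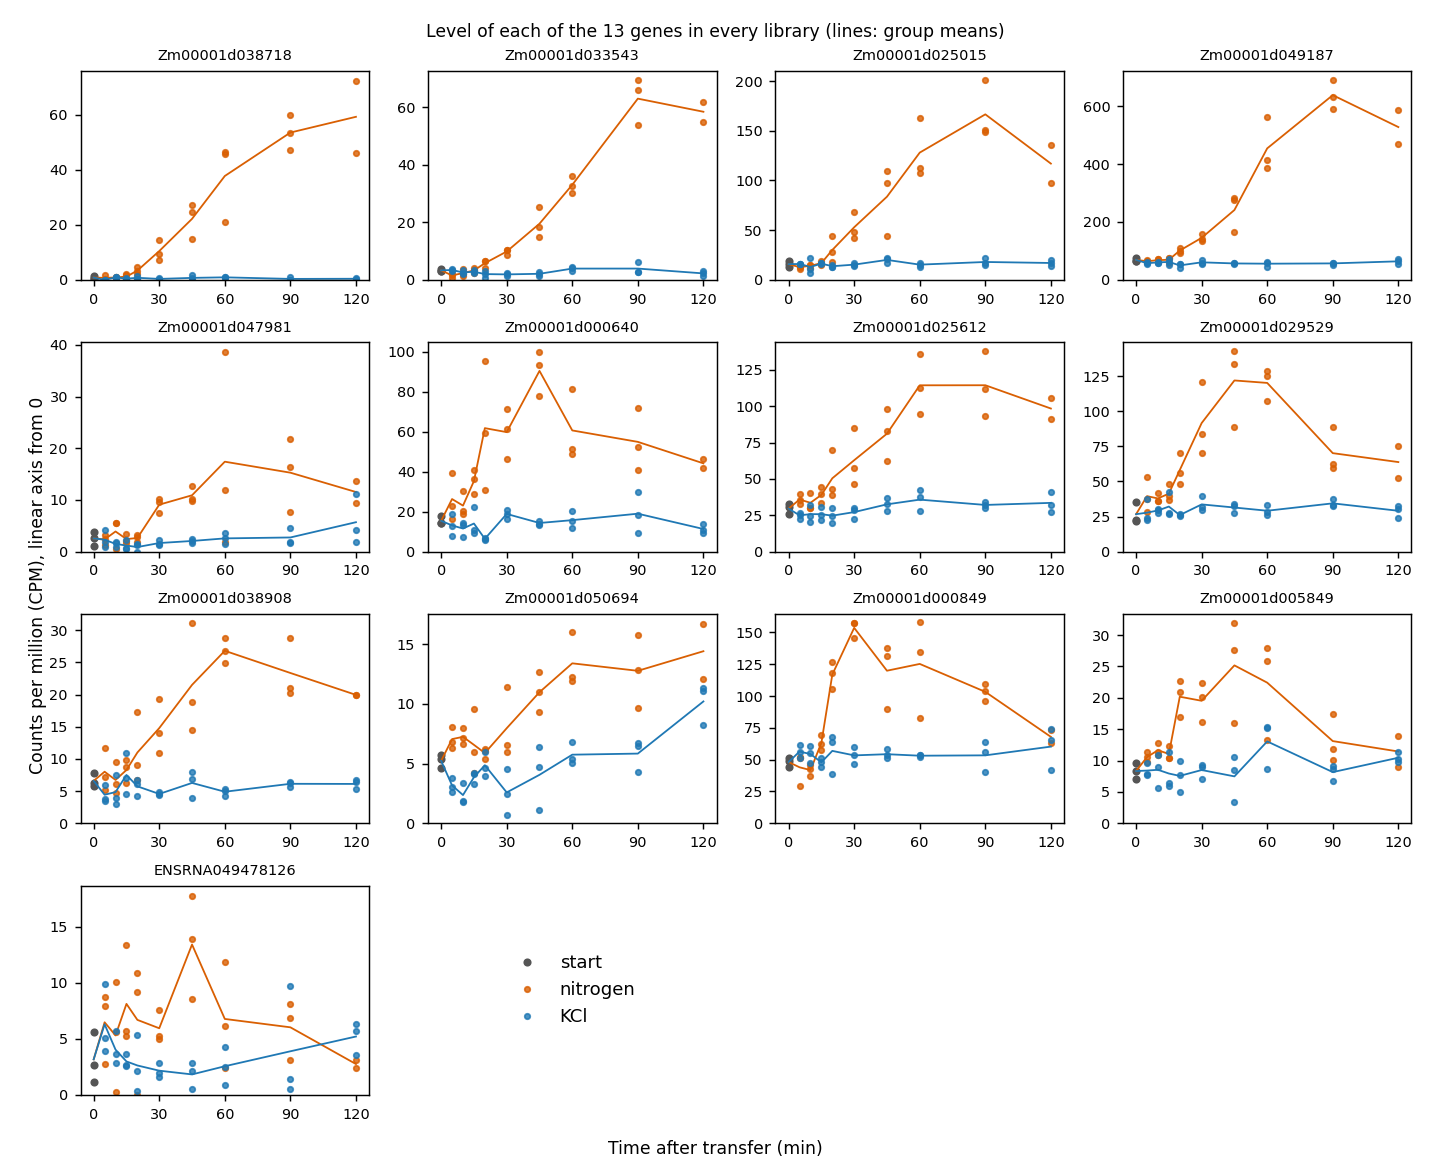
CPM of each of the 13 genes (linear y axis from 0, one panel per gene) against time after transfer in minutes, with a point per library and lines through group means for nitrogen and KCl, both drawn from the start mean. In each panel the nitrogen points at 30 and 45 min lie above the KCl points of the same time; the KCl lines of Zm00001d050694 and Zm00001d047981 dip early and end above the start.

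The 4 genes with the largest rise were Zm00001d038718, Zm00001d033543, Zm00001d025015 and Zm00001d049187. Their log2 rises over 45 to 120 min in nitrogen were 4.50, 3.23, 2.85 and 2.65, against changes in KCl of -0.21, -0.12, 0.14 and -0.24. Each stood near its start level at 5 and 10 min, or below it and had its highest mean at 90 or 120 min.

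Zm00001d038718 was almost silent before nitrogen. The start libraries held 0.764, 0.298 and 1.41 CPM. In nitrogen it stood at 3.10, 4.84 and 2.16 CPM at 20 min, at 9.56, 7.30 and 14.5 at 30 min, and at 53.4, 59.9 and 47.1 at 90 min. The nitrogen libraries at 120 min held 72.3 and 46 CPM, and the 27 KCl libraries ran from 0 to 1.59 with a median of 0.461. From 20 min on every nitrogen library lay above every KCl library of its time. The mean at 120 min was 71.8 times the start mean, a ratio that rests on a start level of 1 to 4 counts per library.

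Zm00001d049187 was the most abundant of the 13. Its start libraries held 74.9, 66.8 and 65.7 CPM, its nitrogen libraries 142, 134 and 160 at 30 min, and 591, 690 and 633 at 90 min. At 120 min they held 586 and 470 CPM. The 27 KCl libraries ran from 40.7 to 73.5 CPM with a median of 57.6. The groups did not overlap from 20 min on, and the highest mean was 9.23 times the start mean.

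Zm00001d033543 had its highest mean at 90 min. It held 3.06, 2.98 and 3.88 CPM at the start and 8.55, 10.5 and 10.5 in nitrogen at 30 min. By 90 min it had reached 53.8, 66.0 and 69.3 CPM, against a KCl range of 0.714 to 6.21 with a median of 2.71. At 90 min for the first time its mean had passed the midpoint between start and peak, the latest of the 13. Its mean at 60 min, 33.1 ± 2.99 CPM (SD, n = 3), fell short of that midpoint by less than the SD. At 5 min its nitrogen libraries, at 0.818, 1.62 and 2.16 CPM, all lay below the KCl libraries, at 2.99, 3.81 and 3.5. That difference, -1.06 on the log2 scale (SE 0.398), did not pass the test (adjusted p = 0.0554).

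Zm00001d025015 held 18.7, 12.8 and 15.9 CPM at the start. It stood at 48.3, 42 and 68.5 CPM in nitrogen at 30 min and at 148, 201 and 150 at 90 min, with 136 and 98.0 at 120 min. Its KCl libraries ran from 6.62 to 22.3 CPM with a median of 15.8. At 45 min nitrogen replicate 3 held 44.6 CPM where the others held 97.1 and 109. That library was the lowest of its group for 12 of the 13 genes, these 4 among them.

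A second set was called higher in nitrogen over the mean of 5 and 10 min, though not at 10 min alone: Zm00001d000640, Zm00001d025612, Zm00001d029529, Zm00001d038908 and Zm00001d050694. Their log2 rises over 45 to 120 min were smaller, at 1.91, 1.74, 1.72, 1.65 and 1.15. These sets were formed after their values were seen.

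Zm00001d000640 had the largest difference over 15 to 30 min, 1.99 on the log2 scale. Its start libraries held 14.1, 17.9 and 14.1 CPM. In nitrogen it held 22.9, 16.5 and 39.5 CPM at 5 min and 20.2, 30.2 and 18.7 CPM at 10 min. By 20 min these had become 31, 59.2 and 95.2 CPM. KCl libraries held 12.7, 7.84 and 18.8 CPM at 5 min and 13.2, 7.24 and 14.1 at 10 min. At 20 min they held 6.4, 6.78 and 5.96 CPM, below the start libraries. The difference of 3.09 at that time thus holds both a higher nitrogen level and a lower KCl level. The media overlapped at 5 min and did not at 10 min or any later time. Its mean was highest at 45 min, at 90.5 ± 11.3 CPM (SD, n = 3), and 48.8% of that at 120 min.

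Zm00001d029529 held 22.1, 35.2 and 22.6 CPM at the start, 134, 143 and 88.9 in nitrogen at 45 min, and 75.4 and 52.3 at 120 min. The KCl libraries ran from 22.2 to 42.3 CPM with a median of 29.9. It thus rose and partly came back, to 52.3% of its highest mean at 120 min, with nitrogen still above KCl in each library.

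Zm00001d025612 held 32.5, 30.4 and 25.8 CPM at the start and 93.4, 138 and 112 in nitrogen at 90 min. It stayed up, at 106 and 91.3 CPM at 120 min, against a KCl range of 19.6 to 42.1. Zm00001d038908 held 5.73, 6.26 and 7.77 CPM at the start and 26.7, 24.9 and 28.8 in nitrogen at 60 min, with 20.0 and 19.9 at 120 min. Its KCl range was 3.02 to 10.8 CPM. At 120 min they kept 86.0% and 74.5% of their highest means.

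In Zm00001d050694 the early gap came with low values in the control. Its start libraries held 5.73, 5.37 and 4.59 CPM. At 5 min nitrogen held 6.27, 8.10 and 6.79 CPM and KCl 2.64, 3.81 and 3.06; at 10 min nitrogen held 7.14, 6.61 and 7.98 and KCl 1.89, 1.81 and 3.39. On the log2 scale of the rule, nitrogen was 0.40 above the start at 10 min and KCl was -0.89 from it, values that were not tested. By 120 min KCl stood at 8.21, 11.4 and 11.1 CPM, close to nitrogen at 16.7 and 12.1. Its 15 to 30 min difference, 0.73, was the smallest of the 13. At 15, 20 and 30 min nitrogen stood 0.281, 0.144 and 0.525 above the start and KCl at -0.359, -0.087 and -0.798 from it.

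Zm00001d000849 and Zm00001d005849 were transient. Zm00001d000849 held 43.9, 49.2 and 51.2 CPM at the start, 118, 105 and 127 in nitrogen at 20 min, and 146, 157 and 158 at 30 min, the earliest peak among the 13. At 120 min it was back at 73.0 and 62.8 CPM, within the KCl libraries of that time at 73.9, 41.7 and 65.2. Zm00001d005849 held 9.55, 8.35 and 7.06 CPM at the start and 27.6, 31.9 and 16.0 in nitrogen at 45 min. At 120 min it held 13.9 and 8.98 CPM, against 9.75, 11.4 and 10.2 in KCl. In Zm00001d000849 the media did not overlap from 15 to 90 min and overlapped again at 120 min. In Zm00001d005849 they overlapped at 15, 60 and 120 min. At 120 min the nitrogen means stood at 44.2% and 45.5% of the peak mean.

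The last pair had low and scattered counts. Zm00001d047981 averaged 5.07 CPM and held 11.8, 38.6 and 1.80 CPM in nitrogen at 60 min, so that its peak mean of 17.4 ± 19 (SD, n = 3) rests on 1 library. ENSRNA049478126 averaged 5.11 CPM and met the rise of 0.8 by the narrowest margin, at 0.82. It held 17.8, 13.9 and 8.55 CPM in nitrogen at 45 min against 2.81, 0.563 and 2.12 in KCl. At 120 min nitrogen, at 2.39 and 3.12 CPM, lay below KCl, at 3.59, 5.68 and 6.35, so for this gene the higher level in nitrogen did not last to the end of the course.

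**Figure D2:**
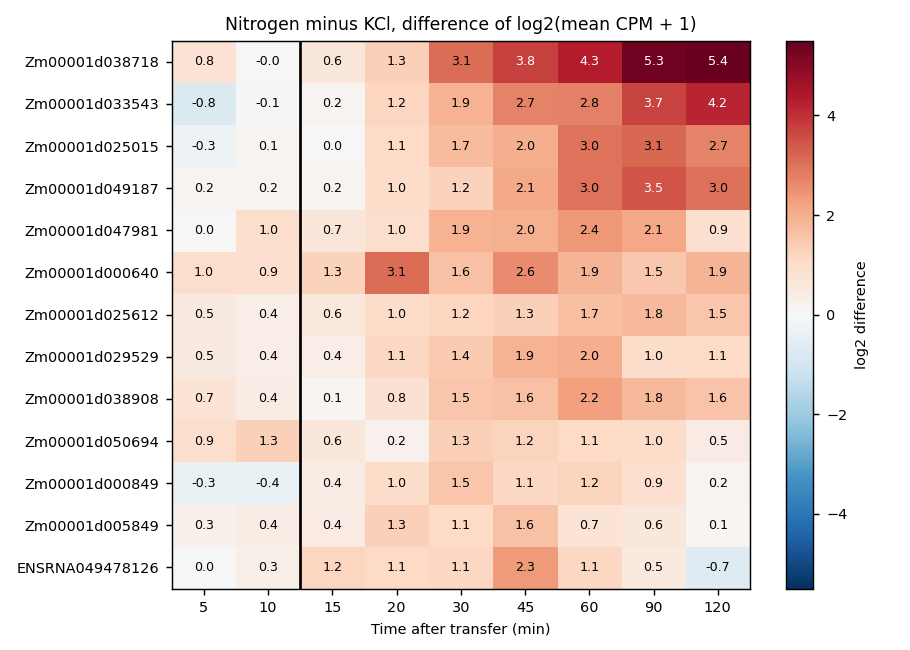
Difference of log2(mean CPM + 1) between nitrogen and KCl for each gene (rows) at each time in minutes (columns), red above 0 and blue below, with the value in each cell; the black line separates the 5 and 10 min columns, which the rule's differences did not use. Cells darken from 20 min on, and the cell of ENSRNA049478126 at 120 min is the only one below 0 after 10 min.

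The rule fixes that nitrogen exceeds KCl on average over 15 to 30 min, but not at which time. On the log2 scale of the rule, the median difference over the 13 genes was 0.30, 0.36 and 0.43 at 5, 10 and 15 min. By 20 min it was 1.08 and by 30 min 1.51. It stood highest at 45 and 60 min, with 1.96 and 2.01, before 1.77 and 1.53 at 90 and 120 min. The medians over all eligible genes lay between -0.05 and 0.055 at these times. The largest step between neighbouring times was that from 15 to 20 min. The summed CPM of the 13 genes ran from 227 to 241 in the start libraries and from 190 to 289 in KCl. It ran from 252 to 273 in nitrogen at 5 min, from 412 to 583 at 20 min and from 1230 to 1473 at 90 min.

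Separation of libraries was counted as well. Every nitrogen library lay above every KCl library for 4 of the 13 genes at 5 min and for 4 at 10 min, where 13.2% and 9.45% of all genes tested did so. The count was 5 at 15 min, beside 13.2% of all genes, and 10 at 20 min, beside 18.9%. At 30 min it was 13, beside 15.4%, and at 45 min 13, beside 19.1%. At 60, 90 and 120 min the counts were 10, 12 and 9, beside 14%, 16.5% and 13% of all genes. The rule used the contrasts from 15 min on, so nothing is read from those counts. Zm00001d049187, Zm00001d025612, Zm00001d050694 and Zm00001d005849 were separated at 5 min, and Zm00001d000640, Zm00001d029529, Zm00001d050694 and Zm00001d005849 at 10 min.

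**Figure D3:**
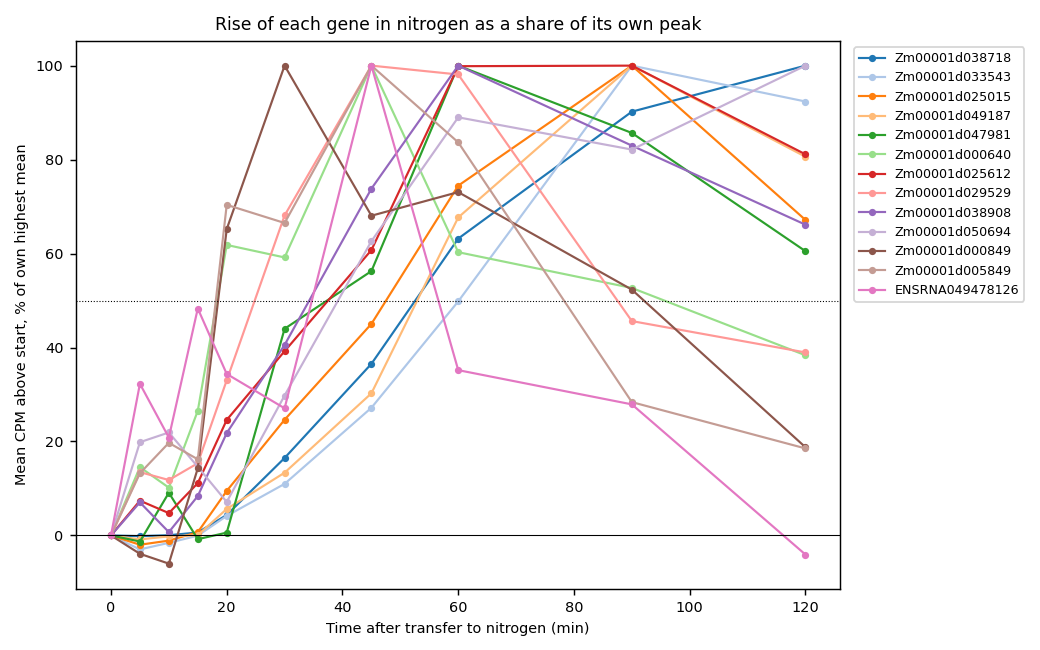
Mean CPM above the start in nitrogen, as a percentage of each gene's own highest mean above the start, against time after transfer in minutes, with a line per gene and a dotted line at the midpoint. Zm00001d000849 peaks at 30 min and falls, while Zm00001d033543 and Zm00001d038718 climb until 90 or 120 min.

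The times at 5 and 10 min ask whether the difference was there before the window that chose the genes. The rule used those libraries only through the mean CPM. That bound is not neutral for all members called below. Zm00001d050694 averaged 4.74 CPM over the KCl and 9.40 over the nitrogen libraries, and Zm00001d038718 0.535 and 19.55. Both met the bound of 5 CPM through nitrogen, so their early calls are not free of the choice. The shares over all genes tested carry no such bound. Counts were tested with edgeR's quasi-likelihood test over all 18412 genes that passed the filter on low counts, which all 13 did, with Benjamini-Hochberg adjustment and a threshold of 0.05. Over the mean of 5 and 10 min, 5 of the 13 were higher in nitrogen and 0 lower, where 10.6% of all genes tested were higher. Zm00001d050694 was higher by 1.39 on the log2 scale (SE 0.258, adjusted p = 0.000141) and Zm00001d000640 by 1.1 (SE 0.265, adjusted p = 0.00224). The others were Zm00001d038908 at 0.72 (SE 0.267, adjusted p = 0.0432), Zm00001d029529 at 0.52 (SE 0.170, adjusted p = 0.0221) and Zm00001d025612 at 0.50 (SE 0.163, adjusted p = 0.0228). The median over the 13 was 0.50, against 0.01 over all genes tested. With DESeq2 in place of edgeR, 2 of the 13 were called, Zm00001d050694 and Zm00001d000640. Zm00001d050694 was called in all 22 alternatives run, at 1.22 to 1.60, and Zm00001d000640 in all but 1 of 22. The count was 2 without KCl 5 min replicate 2, nitrogen 5 min replicate 3 or KCl 10 min replicate 2, and 3 without nitrogen 10 min replicate 2.

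At 5 min alone, 5 of the 13 were higher and 0 lower, beside 8.32% of all genes tested. Zm00001d050694 differed by 1.23 (SE 0.313, adjusted p = 0.00486), Zm00001d000640 by 1.18 (SE 0.335, adjusted p = 0.0114), Zm00001d029529 by 0.66 (SE 0.226, adjusted p = 0.0355) and Zm00001d025612 by 0.62 (SE 0.215, adjusted p = 0.0374). The fifth, Zm00001d038718, held 0 counts in each KCl library and 1, 6 and 0 counts in nitrogen, so its 0.7 CPM pooled over the group is at least 2.90-fold above the level that 3 counts over the KCl group allow, and its call (adjusted p = 0.0487) rests on 1 library. The count rests on few libraries: it fell to 1 without KCl 5 min replicate 2 or without nitrogen 5 min replicate 3, and to 3 without KCl replicate 1, KCl replicate 3 or nitrogen replicate 2. With DESeq2 1 was called, Zm00001d000640 (adjusted p = 0.0488). Under RLE size factors or plain library totals 2 were higher and 1, Zm00001d033543, was lower, at -1.13 and -1.15 (adjusted p = 0.0417 and 0.0337, edgeR).

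At 10 min alone, 0 of the 13 passed the test with edgeR, beside 0.147% of all genes, and 2 had an unadjusted p under 0.05; DESeq2 also called 0. The lowest adjusted p was that of Zm00001d050694, at 0.0675 for a difference of 1.55 (SE 0.415). Between 5 and 10 min the difference grew or shrank beyond the test in 0 of the 13, beside 0% of all genes, with 1 unadjusted p under 0.05. The 4 strongest risers were not among the calls over 5 and 10 min: Zm00001d038718 stood at 1.99 (SE 0.865, adjusted p = 0.0925), Zm00001d025015 stood at -0.08 (SE 0.222), Zm00001d049187 at 0.21 (SE 0.126) and Zm00001d033543 at -0.60 (SE 0.316), and 0 of these 4 passed.

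Libraries of the media also differed in other respects at these times. Plastid models took 0.132% ± 0.0511 of counts in nitrogen and 0.377% ± 0.0272 in KCl at 5 min, and 0.122% ± 0.0494 and 0.208% ± 0.0381 at 10 min (SD, n = 3 each). Along the main axis of variation among replicates within groups, in SD units, nitrogen stood at 1.1 and KCl at -0.82 at 5 min, and at 0.86 and -0.08 at 10 min, with start libraries from -0.83 to 0.51. With each library's position on that axis as a covariate, a setting chosen after seeing the data, 0 of the 13 were called at 5 min and 1 over 5 and 10 min. In that setting 0.703% of all genes tested were called at 5 min, against 18% without the covariate, and 3.37% over 5 and 10 min, against 22.2%, so calls were lost across all genes. The remaining call was Zm00001d050694, at 1.22 (adjusted p = 0.00994). The other 4 stood at 0.58 (Zm00001d000640), 0.24 (Zm00001d025612), 0.24 (Zm00001d029529) and 0.24 (Zm00001d038908), below the values without the covariate. KCl libraries averaged below 0 on this axis at 9 of 9 times and nitrogen libraries above 0 at 7, so the covariate and the medium overlap. The part of these library differences in the early calls was not tested further.

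When the rise began was asked within the window, by the difference at 30 min minus that at 15 min, to which the mean used by the rule is orthogonal. A gene chosen for being higher later has to rise at some time, so these values tell when and not whether, and nothing is read from their sign. All 13 differences were above 0, from 0.11 to 3.39 with a median of 1.1 on the log2 scale, against 0.00 over all genes tested. With edgeR 0 of the 13 passed, beside 0.0272% of all genes, and 6 had an unadjusted p under 0.05. DESeq2 called 0 as well. The lowest adjusted p was that of Zm00001d049187, at 1.1 (SE 0.249, adjusted p = 0.133).

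In the nitrogen libraries alone the step from 15 to 30 min was 3.01 on the log2 scale in Zm00001d038718 (SE 0.509), 1.66 in Zm00001d025015 (SE 0.256), 1.56 in Zm00001d033543 (SE 0.308) and 1.28 in Zm00001d000849 (SE 0.186). It was 1.16 in Zm00001d029529 (SE 0.213) and 1.07 in Zm00001d049187 (SE 0.168), while ENSRNA049478126 stood at -0.41 (SE 0.657). These values are a description, since the rule used the same libraries: edgeR called the 6 genes named first, beside 0.13% of all genes tested, and nothing is read from that count.

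The late part of the course asks which genes kept rising and which turned back. The difference between the media at 90 and 120 min was set against that at 45 and 60 min. The rule's means are orthogonal to this contrast in their weights. They come from the same libraries, however, and on another scale than the count model. The choice and the contrast are thus not strictly independent, so the values are a description and nothing is read from these counts. The media difference was larger late for 2 of the 13 and smaller for 3. Beside that, 6% of all genes tested had a larger and 3.48% a smaller difference. Zm00001d033543 gained 1.15 (SE 0.377, adjusted p = 0.0422) and Zm00001d049187 gained 0.61 (SE 0.176, adjusted p = 0.0226). Zm00001d029529 fell by 0.99 (SE 0.240, adjusted p = 0.00706), Zm00001d005849 fell by 0.93 (SE 0.299, adjusted p = 0.0392) and Zm00001d000849 fell by 0.69 (SE 0.203, adjusted p = 0.0238). ENSRNA049478126, at -2.32 (SE 0.853), did not pass (adjusted p = 0.0724), nor did Zm00001d038718 at 1.81 (SE 0.979), whose KCl libraries held few or 0 counts.

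Within nitrogen alone, 3 of the 13 were higher at 90 and 120 min than at 45 and 60 min and 4 were lower, beside 14.2% and 12.2% of all genes tested. The rule used the mean of these same libraries, so the values are a description and nothing is read from these counts. The higher were Zm00001d033543 at 1.19 (SE 0.140, adjusted p = 1.79e-07), Zm00001d038718 at 0.90 (SE 0.199, adjusted p = 0.000745) and Zm00001d049187 at 0.70 (SE 0.114, adjusted p = 1.44e-05). The lower were Zm00001d005849 at -0.99 (SE 0.185, adjusted p = 9.35e-05), Zm00001d029529 at -0.92 (SE 0.153, adjusted p = 2.00e-05), Zm00001d000640 at -0.66 (SE 0.21, adjusted p = 0.0150) and Zm00001d000849 at -0.61 (SE 0.138, adjusted p = 0.000812). The other 6 of the 13 were called in neither direction. On the axis of variation within groups the nitrogen libraries stood at 1.42 and 1.31 at 45 and 60 min and at -0.26 and -0.62 at 90 and 120 min. With library position as a covariate 0 of the 13 were called on the media difference, though Zm00001d033543 stood at 1.03, Zm00001d049187 at 0.71, Zm00001d000849 at -0.79, Zm00001d005849 at -0.91 and Zm00001d029529 at -0.65. Within nitrogen alone 4 calls held in that setting: Zm00001d033543 at 1.07, Zm00001d049187 at 0.81, Zm00001d000849 at -0.70 and Zm00001d005849 at -0.97, while Zm00001d038718 at 0.75, Zm00001d029529 at -0.57 and Zm00001d000640 at -0.03 did not pass. Zm00001d033543, Zm00001d049187, Zm00001d000849 and Zm00001d005849 were called within nitrogen in all 21 alternatives run. On the media difference the count of 5 was 1 with DESeq2, namely Zm00001d029529, 1 without KCl 90 min replicate 1 and 2 without nitrogen 45 min replicate 2.

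**Figure D4:**
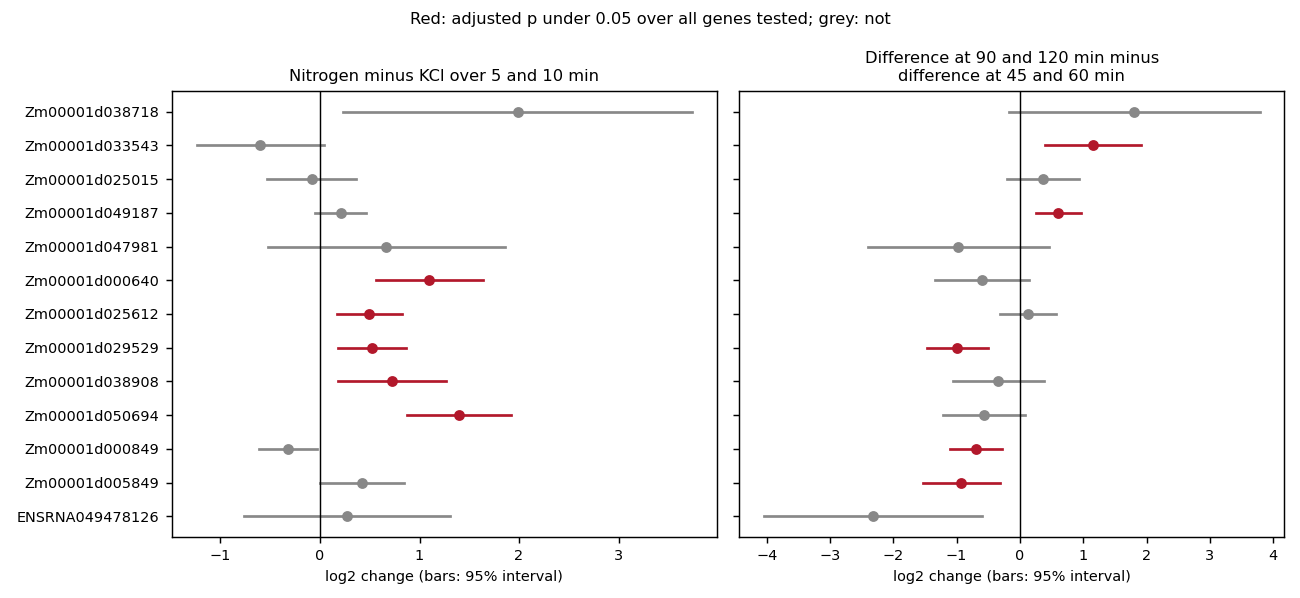
Log2 change (x axis, points) with its interval at an error level of 0.05 (bars) for each of the 13 genes, at left for nitrogen minus KCl over 5 and 10 min and at right for the media difference at 90 and 120 min minus that at 45 and 60 min; red marks an adjusted p under 0.05 over all genes tested. At left 5 genes are red and all are above 0; at right 2 red genes are above 0 and 3 below.

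The nearest genes by the rule are 18 that rose in nitrogen and stayed level in KCl alike, but had a 15 to 30 min difference under 0.7. Their median differences at 5, 10, 20, 30 and 60 min were 0.12, -0.10, 0.31, 0.54 and 1.16, below the members at each of these times. Over the mean of 15, 20 and 30 min that order is set by the rule. At later times it is not, since both sets met the same bounds on the change from the start. At 5 min 3 of these 18 were called higher (16.7%), against 5 of 13 members (38.5%), and over 5 and 10 min the counts were the same, 3 and 5. The difference between the sets was not tested, because both were chosen by values.

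Values on both sides of each threshold show how close the choice was. On the rise in nitrogen, ENSRNA049478126 at 0.82, Zm00001d005849 at 0.96 and Zm00001d000849 at 1.06 were just inside, and Zm00001d033391 at 0.70, Zm00001d031665 at 0.64 and Zm00001d003757 at 0.61 just outside. On the 15 to 30 min difference, Zm00001d050694 at 0.73, Zm00001d049187 at 0.81 and Zm00001d038908 at 0.82 were inside, and Zm00001d023799 at 0.67, Zm00001d000508 at 0.61 and Zm00001d032081 at 0.56 outside. On the change in KCl, the members reached 0.21 (Zm00001d029529), 0.20 (Zm00001d050694) and 0.20 (Zm00001d047981) upward, with Zm00001d042443 at 0.52, Zm00001d038003 at 0.55 and Zm00001d044138 at 0.56 outside. Downward they reached -0.24 (Zm00001d049187), -0.21 (Zm00001d038718) and -0.15 (Zm00001d038908), with Zm00001d038355 at -0.43, Zm00001d044061 at -0.47 and Zm00001d034345 at -0.52 outside. On the mean level, Zm00001d047981 at 5.07, ENSRNA049478126 at 5.11 and Zm00001d050694 at 6.93 CPM were inside, and Zm00001d009626 at 4.74, Zm00001d030199 at 2.27 and Zm00001d008952 at 1.93 CPM outside.

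Genes that the rule left out by ID show what else moved this way. Zm00001d018161 rose by 6.32 on the log2 scale in nitrogen and by 0.37 in KCl, with a 15 to 30 min difference of 3.08, which would have made it the strongest member. Zm00001d052164 was too low to qualify, at a mean of 0.528 CPM, and its 15 to 30 min difference of 0.667 also missed the bound of 0.7. Zm00001d018206 rose by 3.32 in nitrogen and by 1.52 in KCl, with a 15 to 30 min difference of 0.44, and so met neither the steady control nor the fast difference. Among regulators of the network table, 5, named after their values were seen, met every other condition: Zm00001d033347, Zm00001d030891, Zm00001d022628, Zm00001d034160 and Zm00001d019207, with rises of 3.39, 1.24, 1.17, 1.17 and 0.99.

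The authors' deposited network table gives a weight for each pair of 203 regulators and 2732 targets. Of the 13 genes, 9 are among its targets, where 15.1% of eligible genes are; Zm00001d047981, Zm00001d000640, Zm00001d050694 and ENSRNA049478126 are not. How the table was made is not given in these sources, and if it was built on these libraries it is no independent evidence. In the authors' deposited table the regulators with the highest mean weight over these 9 targets were Zm00001d028974 at 0.753, Zm00001d051788 at 0.673, Zm00001d001858 at 0.625, Zm00001d034655 at 0.522 and Zm00001d039893 at 0.386. Over all targets in the authors' deposited table, Zm00001d001858 ranked 1 with a mean of 0.977 and Zm00001d028974 ranked 8 with 0.574. On the log2 scale of the rule, Zm00001d028974 changed by -0.18 in nitrogen and 1.48 in KCl over 45 to 120 min, with a 15 to 30 min difference of -2.46. Zm00001d051788 changed by 0.44 and -0.39, with a difference of 0.46, and Zm00001d001858 by 0.40 and -0.43, with 0.95. Zm00001d034655 changed by -0.21 and 0.37, with -0.94, and Zm00001d039893 by 0.45 and -0.62, with 0.46. The regulator with the highest mean weight was thus lower in nitrogen than in KCl over 15 to 30 min, and the median weight over pairs with these genes, 0.0292, was close to that over all pairs, 0.0305.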

How the data were processed

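The authors deposited raw counts, 1 whole number per gene model and library. The submitters' processing notes name STAR 2.7.6a, fastp 0.21.0, UMI-tools 1.1.1 and featureCounts 2.0.1; per the file headers featureCounts was 1.5.1, with release 37 of the AGPv4 annotation, no strand option and no option to count multi-mapping reads, so reads of near-identical copies may be missing. The deposited quantile-normalized table was treated as a score, because its values are whole numbers of 1 shared distribution; it holds 18370 genes and 55 libraries. The authors' network weights are a score as well. The count table has 2 columns that match no labelled sample, which were not used.

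The 13 genes and the contrasts were chosen with earlier results of these data known. The rule works on CPM from library totals over 100000 counts. Tests used R 4.3.3 and edgeR 4.0.16: the quasi-likelihood F test after filterByExpr and TMM scaling, on the means of 19 groups in 57 libraries, with 38 residual degrees of freedom, two-sided, and Benjamini-Hochberg adjustment over 18412 genes at a threshold of 0.05. The SE of a change is its size over the root of its F statistic, not a separate estimate. The functions were tested on simulated counts. Alternatives were RLE factors, library totals, other filters, a replicate block, left-out libraries, the axis of variation within groups (12.4% of the variance within groups), DESeq2 1.42.0, and limma 3.58.1 on log2 of the deposited score plus 1. The media and nitrogen-only contrasts share libraries. Genes were named by rank of rise, level, early difference and test, and by closeness to a threshold.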

Additional observations from a re-analysis of the deposited data

Results flagged for a closer look

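In 5 of the 13 genes the media difference was called as changed between the middle and the later part of the course, beside 9.48% of all genes tested. The change in the difference was tested directly (edgeR, adjusted over all genes tested). The rule used means of these same libraries, so the values are a description and nothing is read from the count. The count was 1 with DESeq2 and 0 with library position on the axis of variation within groups as a covariate. The media difference was larger at 90 and 120 min than at 45 and 60 min by 1.15 on the log2 scale in Zm00001d033543 (adjusted p = 0.0422) and by 0.61 in Zm00001d049187 (adjusted p = 0.0226). It was smaller, at -0.99 in Zm00001d029529 (adjusted p = 0.00706), -0.93 in Zm00001d005849 (adjusted p = 0.0392) and -0.69 in Zm00001d000849 (adjusted p = 0.0238). Of 34 alternatives, the call was lost in 20, 7, 1, 14 and 5 for these genes in the order given. Over all alternatives the adjusted p ran up to 0.357, 0.10, 0.327, 0.318 and 0.174 in that order, and no direction changed. Library position moved with the same times, and with it as a covariate the values were 1.03, 0.71, -0.65, -0.91 and -0.79 in that order.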

How the results depend on the processing

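Genes called in a contrast of the main fit were recomputed for that contrast under each alternative, and genes not called there were not. Directions held in all 603 such values: 487 kept the call, 116 lost it and 0 reversed. At 5 min the count of 5 became 3 with RLE factors, 3 with library totals, 1 with DESeq2 and 0 with library position on the within-group axis as a covariate; over 5 and 10 min the count of 5 became 2 with DESeq2 and 1 with that covariate. At 10 min the count of 0 became 2 with no filter, 1 with the residual axis as a covariate and 1 with the authors' quantile-normalized table in limma, always with Zm00001d050694. For 30 minus 15 min the count of 0 became 1 with library totals, 3 with no filter, 1 without the library of few counts, 1 with the residual axis, 1 with library position, 1 with the quantile-normalized table and 6 in nitrogen libraries alone. For 90 and 120 minus 45 and 60 min the count of 5 became 1 with DESeq2, 3 with the quantile-normalized table and 0 with library position; within nitrogen alone the count of 7 became 4 with library position. The cause was not tested.

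Leaving out 1 library at a time, other than the library of few counts given above, gave 1 to 6 genes at 5 min, 0 to 1 at 10 min, 2 to 5 over both, 0 to 0 for 10 minus 5 min, 0 to 0 for 30 minus 15 min and 1 to 6 for the late contrast. Within nitrogen alone it gave 4 to 6 for 30 minus 15 min and 6 to 8 for the late contrast. For the late contrast 1 was left without KCl 90 min replicate 1 and 2 without nitrogen 45 min replicate 2. A count of 3 was left without KCl 120 min replicate 2, KCl 45 min replicate 2, KCl 60 min replicate 1 or KCl 90 min replicate 3, and likewise without nitrogen 120 min replicates 1 or 2, 45 min replicate 3, 60 min replicates 1 or 3 or 90 min replicates 2 or 3.

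The rule itself gave 9 to 18 genes under its alternatives and 12 to 16 when replicates were left out. Zm00001d033543, Zm00001d025015, Zm00001d000640, Zm00001d000849 and Zm00001d005849 were kept in 14 of 14 settings, Zm00001d050694 in 9 and ENSRNA049478126 in 5; without start replicate 2, 9 of the 13 were kept. Same-numbered replicates did not deviate together: of 26 pairs 1 correlated above 0.1, between -0.15 and 0.21. A replicate block left the planned counts at 5, 0, 5, 0, 0 and 5, and within nitrogen alone gave 6 and 8. Low counts limit Zm00001d038718 at early times, Zm00001d047981 and ENSRNA049478126, and nitrogen at 120 min rests on 2 deep libraries.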
